A study of Mus musculus with 25 samples.

Results

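The comparison set the salivary glands of 5 mice of 20 weeks against those of 5 mice of 4 weeks, chosen by the labelled age alone, out of 25 mice of 5 ages spaced 4 weeks apart (5 per age). All 25 were male C57BL/6.NOD-Aec1Aec2 mice, a C57BL/6 congenic strain that carries the Idd3 (Aec1, chromosome 3) and Idd5 (Aec2, chromosome 1) regions of the NOD mouse and develops a disease resembling Sjögren's syndrome (SjS). The labels place the 20-week mice at the onset of clinical disease with failing secretion and the 4-week mice before disease. Each array (Affymetrix Mouse Genome 430 2.0) held the RNA of 1 mouse, from a gland lobe of submandibular, sublingual and parotid tissue with the lymph nodes dissected away. The mice of an age came from at least 2 litters, and the RNA of all mice was isolated at the same time. Both ages carried both NOD regions, and C57BL/6 glands were not analysed here, so growth from weaning to adulthood and disease cannot be told apart in any value that follows.

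A salivary gland is built of acini, which secrete water, ions, enzymes and mucins, of ducts, which alter the saliva, and of myoepithelial cells, which contract around them, within a stroma of fibroblasts, capillaries and nerves. In the mouse the gland goes on growing after weaning, and in males the granular ducts of the submandibular gland fill with kallikreins and growth factors as androgen rises at puberty. In SjS lymphocytes gather in the gland, interferon and major histocompatibility complex (MHC) genes are raised, and the flow of saliva falls.

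Values were log2 signal levels, a gene's level being the mean of its probe sets, and differences are 20 weeks minus 4 weeks on the log2 scale with their standard error (SE). A difference passed where its adjusted p was below 0.05 in the limma fit across 18194 genes, which took the spread from all 25 arrays. Where the values of a gene are given for each mouse, they run from replicate 1 to replicate 5. The values carry no detection calls: levels near 3, around the median of all probe sets of 3.27, are those of genes with little or no signal, and a difference against them may understate the change. The p-values measure the spread between these mice.

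Replicate 3 of the 20-week mice was an array of low quality. It correlated with the other 20-week arrays at a median r of 0.887, whereas for the other 9 arrays of this comparison that value lay between 0.974 and 0.992. Its Gapdh control probes differed between the 3' and 5' ends by 3.87, against 0.05 to 1.11 on the other 20-week arrays and 0.49 to 1.68 at 4 weeks. The transferrin receptor probes differed by 1.04 to 2.01 on those other 20-week arrays and by 0.78 to 0.89 at 4 weeks. On replicate 5 of the 20-week mice the actin probes differed by 3.75, against 1.85 to 2.67 on the remaining arrays apart from replicate 3. The part of RNA quality in the differences between the ages was not tested. Because of replicate 3, the counts for the gene lists are plotted, and many single values given, without it as well. Markers of single gland parts varied within both ages: amylase (Amy1), a parotid product, ranged over 10.22 to 16.00 at 20 weeks and 8.42 to 15.86 at 4 weeks, and Glycam1, a marker of lymph node vessels, over 3.84 to 7.91 at 20 weeks and 4.14 to 9.62 at 4 weeks. The markers of acini (6 of 7 measured), granular ducts (2 of 5), ducts (4 of 4) and myoepithelium (3 of 3) had signal at both ages, and those of Schwann cells were not analysed here. In such pieces of tissue, fewer cells of a type and less RNA per cell cannot be told apart.

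Of 18194 genes, 207 (1.14%) were higher and 276 (1.52%) lower at 20 weeks than at 4 weeks, 72 and 133 of them by over 2-fold, and 109 of the higher and 183 of the lower genes had values that did not overlap between the ages. Over all genes, called or not, 1.22% were higher and 1.35% lower without overlap, and 6.12% and 2.65% without replicate 3. Without replicate 3, 1134 genes (6.23%) were higher and 483 (2.65%) lower, including 206 of the 207 and 270 of the 276. The balance between the directions depended on the scaling: after quantile normalization 357 genes were higher and 697 lower with all arrays, and 880 (4.84%) and 1093 (6.01%) without replicate 3. With the spread taken from these 10 arrays alone, 9 genes were higher and 38 lower. The number of higher genes also rested on single 4-week and 20-week arrays, being 107, 108 and 97 without replicate 2, 3 or 4 of the 4-week mice and 119 without replicate 1 of the 20-week mice, and the number of lower genes was 181 without replicate 3 of the 4-week mice.

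**Figure D1:**
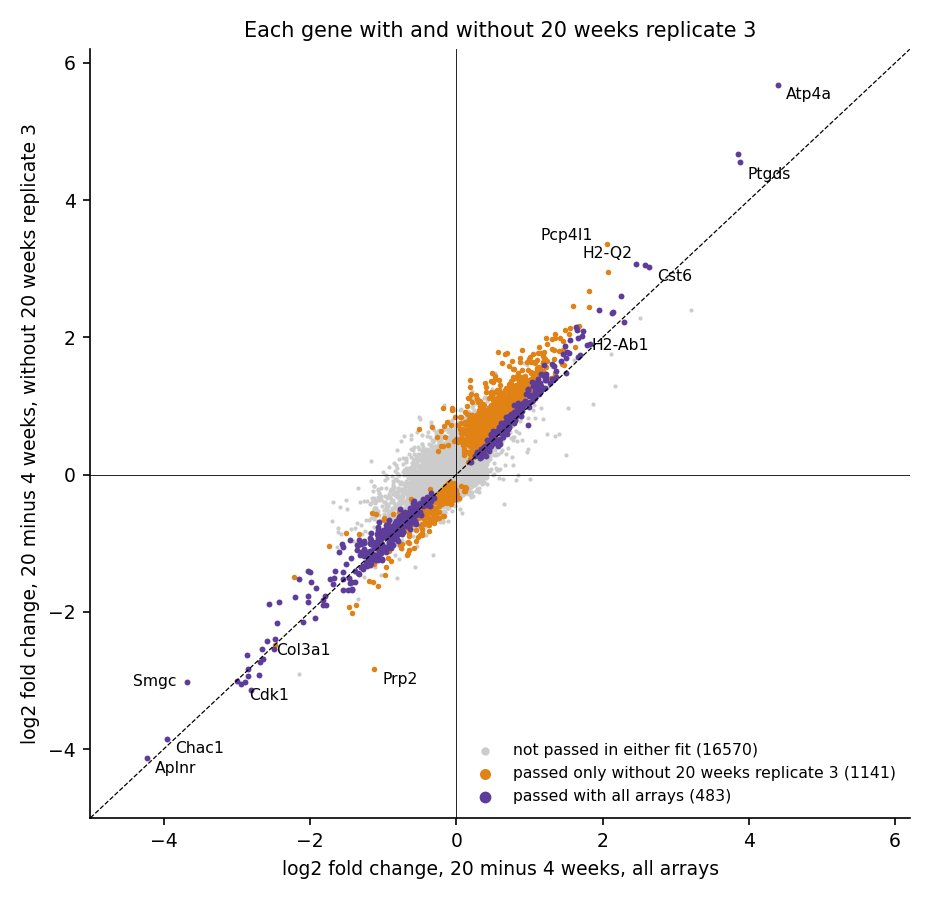
Each point is a gene, placed by its log2 difference between 20 and 4 weeks with all arrays (x axis) and without 20 weeks replicate 3 (y axis); the dashed line marks equal values. The 483 genes past the threshold with all arrays lie near the line among the decreases, from Aplnr to Col3a1, while most of the 1141 that passed only without replicate 3 lie above it, on the side of the increases.

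The decreases were led by genes of dividing cells. Of 67 mitosis genes 22 fell and none rose, with a median difference of -0.30 over the list against 0.04 over all genes (-0.01 without replicate 3). Without replicate 3, 36 fell and Pttg1, the securin gene, was the only 1 higher (0.57, adjusted p = 0.0142). Cdk1, the kinase that drives entry into mitosis, had levels of 2.81, 3.05, 2.94, 2.79 and 2.88 at 20 weeks, against 5.31, 6.66, 4.94, 6.63 and 5.94 at 4 weeks (difference -3.00, SE 0.23, adjusted p = 4.33e-08). Ccnb2, a cyclin partner of Cdk1, had levels of 2.34, 2.36, 2.55, 2.37 and 2.35 at 20 weeks, against 4.53, 5.37, 5.43, 5.18 and 4.67 at 4 weeks (-2.64, SE 0.17, adjusted p = 1.1e-08). All 5 mice of 20 weeks lay at the level of genes without signal for both, replicate 3 with the rest, and below every mouse of 4 weeks. Mki67, the marker of cycling cells, had levels of 3.21, 3.16, 4.03, 3.76 and 3.34 at 20 weeks, against 5.97, 6.74, 6.51, 6.69 and 6.03 at 4 weeks (-2.89, SE 0.30, adjusted p = 5.37e-06). The groups did not overlap for it, nor for Pbk (-2.94), Birc5 (-2.69), Ube2c (-2.70) and Cdc20 (-2.80), which encode a mitotic kinase, survivin, the ubiquitin-conjugating enzyme of the anaphase-promoting complex and its activator. For the largest decreases, lack of overlap was a condition of being named.

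The promoters of 3 of these genes are shown because genes of this class are known to carry a cell cycle genes homology region (CHR, searched as TTTGAA) with CCAAT boxes (CCAAT) upstream, both on either strand. They run from 250 bases before to 50 after the RefSeq start site on GRCm38.p6, and capitals mark the matches. Ccnb2 lies at chr9:70421505-70421804 (minus strand), Cdk1 at chr10:69352863-69353162 (minus strand) and Ube2c at chr2:164769679-164769978 (plus strand).
Ccnb2: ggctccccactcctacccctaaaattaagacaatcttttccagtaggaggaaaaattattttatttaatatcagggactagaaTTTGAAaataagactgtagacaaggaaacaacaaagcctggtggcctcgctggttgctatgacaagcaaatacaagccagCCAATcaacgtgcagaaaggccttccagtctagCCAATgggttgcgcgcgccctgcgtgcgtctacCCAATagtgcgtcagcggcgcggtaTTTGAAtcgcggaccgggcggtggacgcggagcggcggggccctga
Cdk1: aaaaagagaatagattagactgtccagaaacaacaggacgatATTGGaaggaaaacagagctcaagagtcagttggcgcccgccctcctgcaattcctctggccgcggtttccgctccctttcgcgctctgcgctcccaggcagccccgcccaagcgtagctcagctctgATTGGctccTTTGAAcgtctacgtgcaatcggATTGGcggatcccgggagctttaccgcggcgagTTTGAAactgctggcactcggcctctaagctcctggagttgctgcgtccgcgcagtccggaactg
Ube2c: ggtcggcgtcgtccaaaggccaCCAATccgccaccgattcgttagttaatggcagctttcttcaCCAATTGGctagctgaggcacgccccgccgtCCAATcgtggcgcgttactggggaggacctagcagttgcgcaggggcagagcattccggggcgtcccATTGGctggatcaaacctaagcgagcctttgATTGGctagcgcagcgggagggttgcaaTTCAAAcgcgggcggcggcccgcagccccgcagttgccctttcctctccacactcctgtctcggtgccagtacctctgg
Ccnb2 and Cdk1 each held 2 CHR and 3 CCAAT matches, and Ube2c held 1 CHR and 6 CCAAT matches, of which an adjoining pair on opposite strands overlaps. Of the 22 mitosis genes that fell, 17 had a promoter in the RefSeq table, and 16 of their 19 windows (84.2%) held both motifs. Among the 45 mitosis genes that did not pass, 17 of 39 windows (43.6%) held both, and over all 32851 windows of the table the share was 6.95% (17.9% held a CHR and 37.4% a CCAAT match). A match of letters is a description of the window and not a site of binding.

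Genes of DNA replication moved the same way in smaller number. Of 47 members 8 fell and none rose, with a median of -0.12, and 12 fell without replicate 3 (median -0.19). Mcm6, a subunit of the replicative helicase, had levels of 5.69, 5.39, 6.33, 5.45 and 5.71 at 20 weeks, against 7.34, 7.72, 8.05, 7.76 and 7.38 at 4 weeks (-1.94, SE 0.36, adjusted p = 0.00348). The groups were apart, with replicate 3 the highest at 20 weeks. Ezh2, which methylates histone H3, fell by 1.30 and Rrm2, a subunit of ribonucleotide reductase, by 1.42. The call of Rrm2 was lost in 4 of 10 fits that left out 1 array (adjusted p = 0.061 without 20 weeks replicate 1). Mcm5 had a difference of -1.47 that did not pass with all arrays (adjusted p = 0.183) and fell by 1.92 without replicate 3 (adjusted p = 0.0193), where its level of 7.44 stood above the 4.82 to 5.51 of the other 20-week mice.

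Genes of fibrillar collagens and of the basement membrane were among those that fell. Of 42 collagen genes 12 fell, from Col1a2 (-2.85) to Col5a1 (-1.01), and none rose, while the other 30 did not pass. The median over the list was -0.07, and -0.16 without replicate 3. The members that fell encode chains of collagens I, III, V and VI, of the basement membrane collagen IV (Col4a2, Col4a5) and collagen XV. Col1a1 had levels of 6.36, 6.43, 6.00, 5.88 and 5.54 at 20 weeks, against 8.92, 9.26, 9.04, 8.63 and 8.60 at 4 weeks (-2.85, SE 0.24, adjusted p = 2.3e-07). Col3a1 had levels of 7.20, 7.21, 6.17, 6.89 and 6.68 at 20 weeks, against 9.47, 9.70, 9.97, 9.55 and 8.37 at 4 weeks (-2.58, SE 0.26, adjusted p = 3.59e-06). Every mouse of 20 weeks lay below every mouse of 4 weeks for both chains, by more than 2 for Col1a1. Without replicate 3 the differences were -2.84 and -2.42.

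Of 55 other matrix genes 16 fell and none rose (median -0.20). They include Nid1 and Nid2, the nidogens that link laminin to collagen IV, the laminin chains Lamc1, Lama2 and Lamb1, elastin (Eln), the collagen-binding protein Sparc, the collagen processing factors Pcolce and Crtap and the proteases Mmp2, Mmp14 and Fap. Nid1 had levels of 7.25, 7.21, 6.40, 6.95 and 6.58 at 20 weeks, against 8.48, 8.73, 8.76, 8.14 and 7.98 at 4 weeks (-1.54, SE 0.23, adjusted p = 0.000576). The groups did not overlap. Sparc fell by 1.45 with all arrays and by 0.95 without replicate 3, in which it stood at 5.82 beside 8.13 to 8.47 in the other 20-week mice. Its 3 probe sets ran from -2.93 to -0.04 with all arrays and from -1.40 to -0.39 without replicate 3. Without replicate 3, Timp3, a protease inhibitor, and Thbs1, a thrombospondin, were higher by 2.46 and 2.67 (adjusted p = 0.00535 and 0.0154). Thbs1 varied widely within both ages (2.71 to 8.08 at 20 weeks and 2.76 to 5.78 at 4 weeks). Pdgfrb, the receptor of pericytes and fibroblasts, fell by 1.19.

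The vessel genes followed. Of 32 endothelial genes 9 fell and none rose (median -0.26), and 12 fell without replicate 3. Aplnr, the apelin receptor of growing vessels, had the largest decrease among named genes whose groups did not overlap. It had levels of 4.05, 3.20, 2.88, 3.33 and 3.02 at 20 weeks, against 7.37, 7.80, 8.25, 7.59 and 6.64 at 4 weeks (-4.23, SE 0.45, adjusted p = 5.43e-06). Replicates 2 to 5 of the 20-week mice lay near the level of genes without signal. Kdr, the main receptor for vascular endothelial growth factor, had levels of 3.31, 3.03, 2.63, 2.89 and 2.46 at 20 weeks, against 3.55, 4.43, 4.33, 4.03 and 3.83 at 4 weeks (-1.17, SE 0.17, adjusted p = 0.000314). Plvap, of fenestrated capillaries, fell by 1.60, and Nid1 is a member of this list too. The junction genes Pecam1 (-0.26, adjusted p = 0.209) and Cdh5 (-0.28, adjusted p = 0.149) did not pass, and both lay below 3.27 in every mouse. Rgs5, a marker of pericytes, fell by 1.25 (adjusted p = 3.57e-05).

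**Figure D2:**
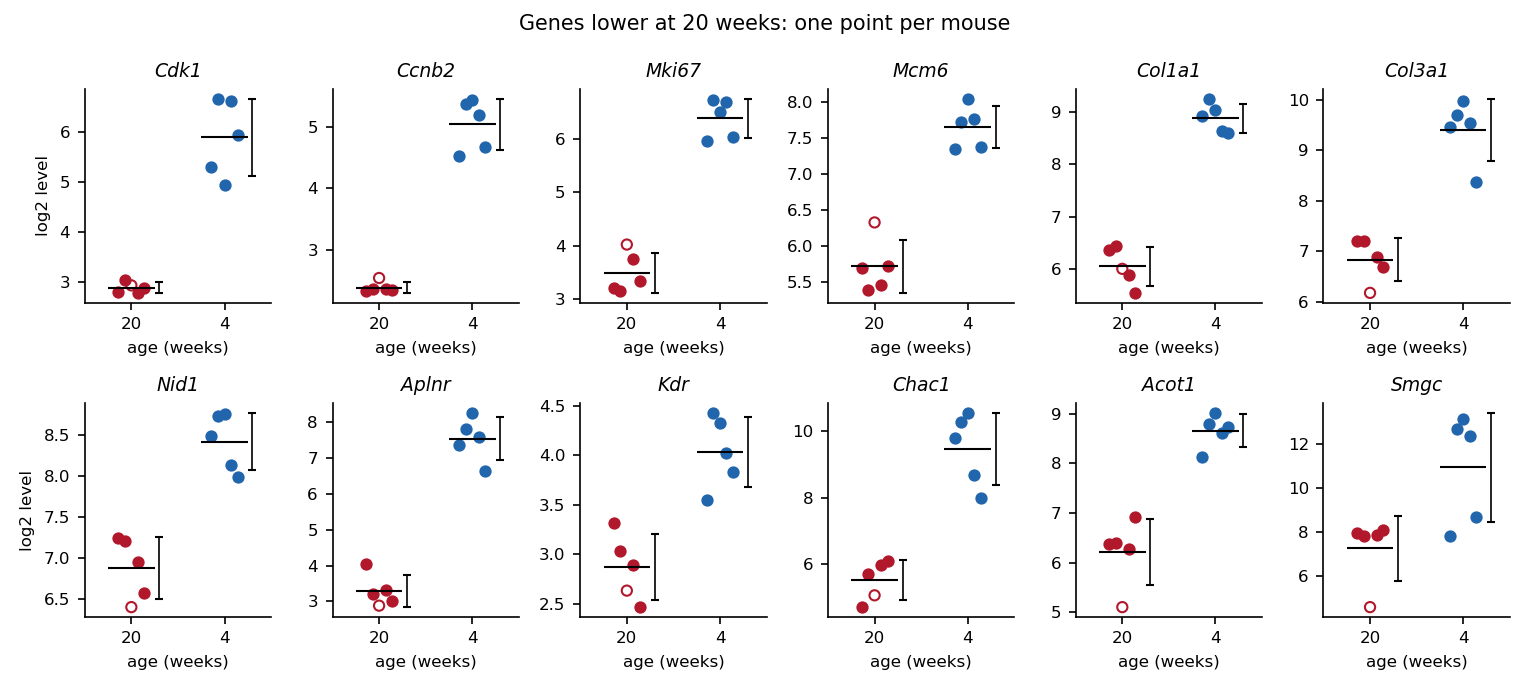
Log2 level of 12 genes in each mouse at 20 weeks (red, left) and 4 weeks (blue, right), with the mean (line) and SD (bar beside it, n = 5); the open circle is 20 weeks replicate 3. The groups are apart for each gene but Smgc, whose 4-week mice fall at 7.82 to 8.69 and 12.33 to 13.12.

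Among growth regulators, Igfbp3, Igfbp5 and Igfbp7, binding proteins of the insulin-like growth factor (IGF) family, fell by 1.06, 1.05 and 1.44 with groups that did not overlap. Igf1 itself had levels of 4.84, 4.91, 5.47, 4.52 and 4.57 at 20 weeks, against 5.24, 6.00, 5.79, 6.34 and 5.26 at 4 weeks (-0.87, SE 0.23, adjusted p = 0.041). Its groups overlapped, and its call was lost in 7 of the 10 fits that left out 1 array (up to adjusted p = 0.123 without 4 weeks replicate 4). These 4 were the members of the 13-gene IGF list that passed. Ghr, the growth hormone receptor, differed by 1.02 (adjusted p = 0.25) and rose by 1.50 without replicate 3 (adjusted p = 0.00479). Of 21 imprinted growth genes, Ndn fell by 0.85 and Impact rose by 0.60, both of which lost their call in fits without 1 array (adjusted p up to 0.0589 without 4 weeks replicate 3 and 0.138 without 20 weeks replicate 4). Igf2, the fetal growth factor, had a difference of -0.29 that passed only without replicate 3 (-0.39, adjusted p = 0.0249). Its levels, 2.76 to 3.56, were near those of genes without signal, and its 2 probe sets disagreed in direction with all arrays. Cdkn1c (-2.48, adjusted p = 0.0399) and Peg3 (-0.25, adjusted p = 0.00754) likewise passed only without replicate 3. Cdkn1c had levels of 2.80, 7.74, 7.79, 4.98 and 2.80 at 4 weeks, against 2.67 to 2.79 at 20 weeks. Peg3 lay below 3.27 in every mouse.

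Of 42 genes of endoplasmic reticulum (ER) folding and stress, Chac1, Trib3 and Asns fell. Chac1, an enzyme that breaks down glutathione, had levels of 4.70, 5.71, 5.06, 5.98 and 6.10 at 20 weeks, against 9.81, 10.29, 10.56, 8.68 and 8.00 at 4 weeks (-3.96, SE 0.52, adjusted p = 0.00011). Every mouse of 4 weeks lay well above every mouse of 20 weeks, replicate 3 included. Trib3, a pseudokinase, fell by 1.43 (adjusted p = 0.00211), and Asns, asparagine synthetase, by 0.56 (adjusted p = 0.0361). Psat1, an enzyme of serine synthesis outside that list, fell by 2.02 (adjusted p = 0.00428). The transcription factor genes Atf4 (-0.01, adjusted p = 0.984) and Ddit3 (0.35, adjusted p = 0.74) did not pass.

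Chac1, Trib3 and Asns are known targets of the ATF4 protein, which binds a C/EBP-ATF response element (CARE, searched as TGATGNAA on both strands). Their windows, of the same kind as above, lie at chr2:119350992-119351291 (Chac1, plus strand), chr2:152344011-152344310 (Trib3, minus strand) and chr6:7693160-7693459 (Asns, minus strand), with the match in capitals.
Chac1: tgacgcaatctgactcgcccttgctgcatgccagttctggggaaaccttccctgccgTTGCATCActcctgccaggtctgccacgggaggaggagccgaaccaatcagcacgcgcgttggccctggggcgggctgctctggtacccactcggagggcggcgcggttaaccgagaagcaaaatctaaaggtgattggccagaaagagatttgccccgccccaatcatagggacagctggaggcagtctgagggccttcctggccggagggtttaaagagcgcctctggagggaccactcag
Trib3: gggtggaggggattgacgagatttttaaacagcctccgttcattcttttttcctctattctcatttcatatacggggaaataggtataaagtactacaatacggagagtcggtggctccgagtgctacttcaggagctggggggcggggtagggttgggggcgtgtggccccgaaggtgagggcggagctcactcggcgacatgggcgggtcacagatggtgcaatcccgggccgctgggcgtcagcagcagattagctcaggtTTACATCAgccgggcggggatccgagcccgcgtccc
Asns: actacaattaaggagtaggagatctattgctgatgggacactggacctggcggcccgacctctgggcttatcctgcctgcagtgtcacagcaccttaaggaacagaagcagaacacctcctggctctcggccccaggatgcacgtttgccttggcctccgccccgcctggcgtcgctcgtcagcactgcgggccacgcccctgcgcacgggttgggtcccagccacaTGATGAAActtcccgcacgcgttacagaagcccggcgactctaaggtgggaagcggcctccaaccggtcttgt
Each held 1 match, as did 3.97% of all windows in the table (1 or more).

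Of 33 genes of fatty acid oxidation 8 fell and none rose, and the list's median was -0.53 with all arrays and -0.14 without replicate 3, in which the list was lower than in any other mouse. Acot1, a fatty acyl-CoA thioesterase, had levels of 6.38, 6.40, 5.10, 6.28 and 6.92 at 20 weeks, against 8.13, 8.80, 9.02, 8.62 and 8.74 at 4 weeks (-2.44, SE 0.25, adjusted p = 3.59e-06). The groups were apart by more than 1 with or without replicate 3. Cpt1a, the gate of mitochondrial fatty acid import, fell by 1.35 (1.02 without replicate 3), Pex11a, which divides peroxisomes, by 2.15 (1.52) and Slc25a20, the carnitine carrier, by 1.30 (1.00). The 8 members that fell were also those that fell without replicate 3. Angptl4, a target of fatty acid receptors and of glucocorticoid, fell by 1.46, a call that was lost without 4 weeks replicate 3 or 4 (up to adjusted p = 0.0583). In lipid synthesis 2 of 34 genes fell, Gpam of glycerolipid synthesis by 0.95 and the sterol carrier Stard4 by 1.28, and none rose.

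Among the largest increases were genes of secreted proteins and of transporters. Ptgds, the lipocalin-type prostaglandin D synthase, had levels of 9.46, 8.81, 5.64, 9.18 and 8.78 at 20 weeks, against 4.10, 4.79, 4.72, 4.42 and 4.46 at 4 weeks (3.87, SE 0.65, adjusted p = 0.00165). Every mouse of 20 weeks was higher than every mouse of 4 weeks, and replicate 3 stood apart from the other 4, without which the difference was 4.56 (adjusted p = 3.28e-05). Cst6, the protease inhibitor cystatin E/M, had levels of 8.56, 7.88, 6.65, 8.57 and 9.51 at 20 weeks, against 6.58, 5.48, 4.51, 5.10 and 6.31 at 4 weeks (2.64, SE 0.41, adjusted p = 0.000634). Replicate 3 was again the lowest of its age and just above the highest mouse of 4 weeks. Apod, another lipocalin, rose by 1.65 (2.11 without replicate 3, where its groups no longer overlapped). Ptgds and Apod were the 2 of 13 lipocalins and urinary proteins that passed, and Cst6 was the only 1 of 51 cystatins and serpins. Of those 51, 8 rose and 1 fell without replicate 3. Over all genes 1.14% were higher with all arrays, and 6.23% were higher and 2.65% lower without replicate 3.

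Slc41a2, a magnesium transporter, had levels of 9.03, 8.90, 9.19, 9.01 and 8.45 at 20 weeks, against 7.80, 5.87, 6.33, 6.08 and 7.05 at 4 weeks (2.29, SE 0.30, adjusted p = 9.66e-05). Replicate 3 was here the highest of its age, and the groups did not overlap. Casq2, a calcium-binding protein of internal stores, rose by 1.50, the tubulin Tubb2b by 1.79, the peptide transporter Slc15a1 by 1.69, the potassium channel subunit Kcns3 by 1.66 and the receptor phosphatase Ptprz1 by 1.66, all with groups that did not overlap. For the largest increases, lack of overlap was a condition of being named. Tac1, the precursor of substance P, had levels of 6.25, 5.88, 5.53, 6.37 and 6.62 at 20 weeks, against 5.51, 4.21, 4.51, 4.29 and 5.33 at 4 weeks (1.36, SE 0.22, adjusted p = 0.00107). The gap between the groups was small, as replicates 1 and 5 of the 4-week mice lay near the 20-week range. The 2 probe sets of Tac1 differed by 0.05 and 2.67, so their mean stands for neither. Cck, the cholecystokinin precursor, rose by 1.14 (adjusted p = 0.00113).

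Of 24 genes of duct ion transport 2 rose and 1 fell. Atp4a, the catalytic subunit of the proton-potassium pump known from the stomach, had levels of 9.93, 9.72, 3.00, 10.08 and 7.98 at 20 weeks, against 6.32, 2.97, 2.56, 2.97 and 3.90 at 4 weeks (4.40, SE 0.97, adjusted p = 0.0137). Replicate 3 lay among the mice of 4 weeks; without it the groups did not overlap and the difference was 5.68 (adjusted p = 1.1e-05). Cftr, the chloride channel of the duct, had levels of 8.44, 7.60, 7.12, 6.74 and 6.89 at 20 weeks, against 6.56, 5.91, 6.29, 5.60 and 6.05 at 4 weeks (1.28, SE 0.26, adjusted p = 0.00714). All 20-week mice were higher. Slc26a6, an anion exchanger, fell by 1.26, which did not pass without 4 weeks replicate 3 or 5 (up to adjusted p = 0.071). The noncoding RNA Snhg11 rose by 3.85 (adjusted p = 0.0114) and the calcium-binding S100a1 by 2.46 (adjusted p = 0.0152), and S100a1 missed the threshold without 4 weeks replicate 2 (adjusted p = 0.0517). For Atp4a, Snhg11 and S100a1 the highest 4-week mouse was replicate 1 and the next replicate 5 (6.32 and 3.90, 7.09 and 4.54, 9.90 and 8.77).

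**Figure D3:**
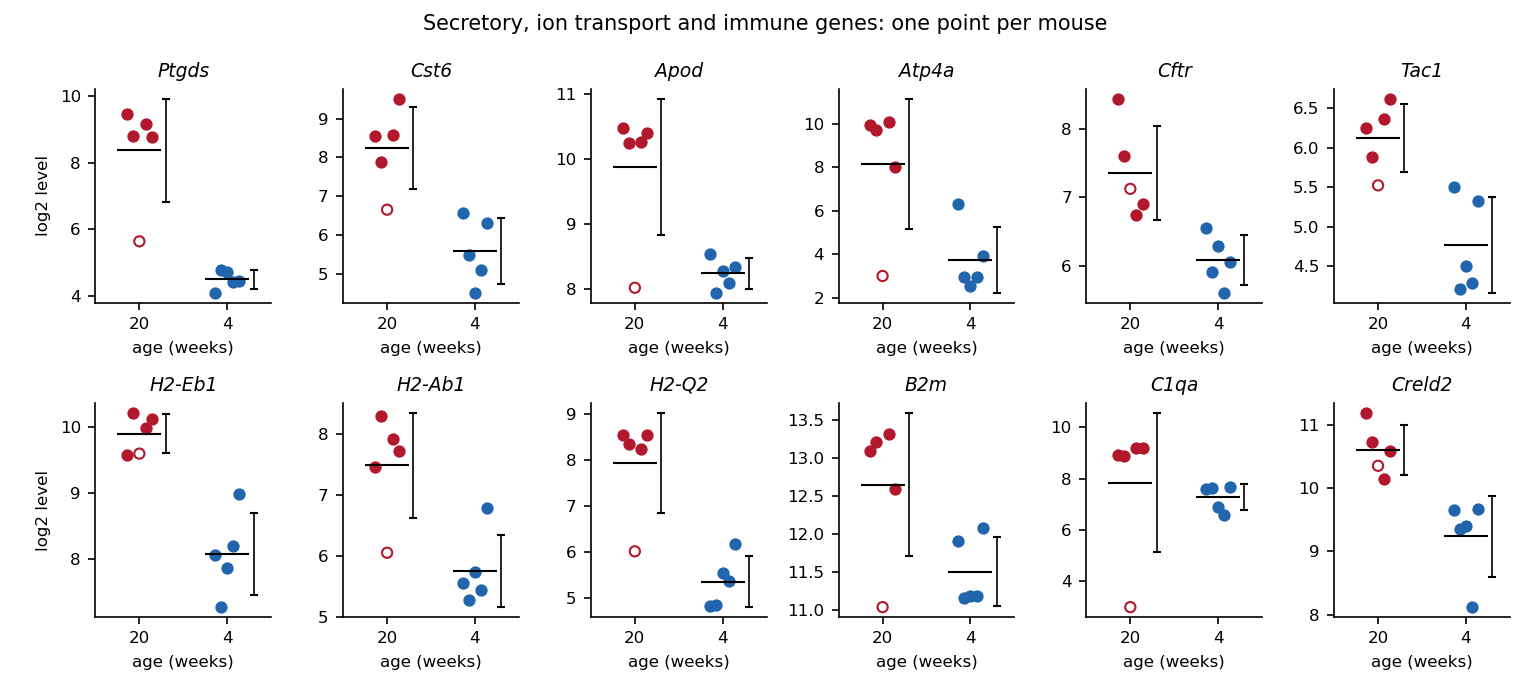
Log2 level of 12 genes in each mouse at 20 weeks (red, left) and 4 weeks (blue, right), with the mean (line) and SD (bar beside it, n = 5); the open circle is 20 weeks replicate 3. Replicate 3 is the lowest 20-week mouse for 9 of the genes and lies among the 4-week mice for Apod, Atp4a, H2-Ab1 and H2-Q2 and below all of them for B2m and C1qa.

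Antigen presentation held the largest called increases among the immune genes. Of 10 MHC class II genes 2 rose with all arrays, with a median of 0.75, and 3 rose without replicate 3, with a median of 0.37. H2-Eb1, a class II beta chain, had levels of 9.58, 10.21, 9.60, 9.98 and 10.13 at 20 weeks, against 8.06, 7.27, 7.87, 8.20 and 8.98 at 4 weeks (1.82, SE 0.37, adjusted p = 0.0075). The groups did not overlap, and its call held in each fit that left out 1 array. H2-Ab1, its counterpart at the A locus, had levels of 7.45, 8.29, 6.05, 7.91 and 7.73 at 20 weeks, against 5.55, 5.28, 5.73, 5.43 and 6.78 at 4 weeks (1.73, SE 0.45, adjusted p = 0.04). Its groups overlapped through replicate 3 of the 20-week mice and replicate 5 of the 4-week mice, and its call was lost in 8 of the 10 fits that left out 1 array (up to adjusted p = 0.112 without 4 weeks replicate 2), though not without replicate 3 (2.09, adjusted p = 0.00524). Cd74, the invariant chain, differed by 1.29 (adjusted p = 0.0875) and rose by 1.41 without replicate 3 (adjusted p = 0.0398), whereas H2-Aa (1.15, adjusted p = 0.177) passed in neither.

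Of 25 genes of MHC class I and peptide loading, H2-Q2 alone rose with all arrays. It had levels of 8.54, 8.34, 6.02, 8.24 and 8.55 at 20 weeks, against 4.84, 4.86, 5.54, 5.38 and 6.17 at 4 weeks (2.58, SE 0.42, adjusted p = 0.00131), with replicate 3 below the highest 4-week mouse. Beta-2 microglobulin (B2m), the light chain of class I, had levels of 13.10, 13.22, 11.04, 13.32 and 12.59 at 20 weeks, against 11.92, 11.17, 11.20, 11.19 and 12.08 at 4 weeks (1.15, adjusted p = 0.0521). Without replicate 3 it rose by 1.55 (adjusted p = 0.00013), and so did the classical chains H2-K1 (1.12) and H2-D1 (0.86), and its groups no longer overlapped. In that fit 5 of the 25 genes rose and 1 fell, where 6.23% of all genes were higher and 2.65% lower. Tap1 (0.54) and Psmb8 (0.57), of peptide supply, passed in neither. Class I genes share sequence, so that probe sets for H2-Q2, H2-K1 and H2-D1 may take signal from their relatives. The 7 probe sets of H2-D1 ran from -0.01 to 2.20 without replicate 3.

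Of 52 interferon-induced genes 50 did not pass and 2 rose, Ifi27l2a by 1.22 and the RNA-dependent kinase Eif2ak2 by 0.98, with a median of 0.20 over the list. These calls were lost in 4 and 2 of the 10 fits that left out 1 array, up to those without 4 weeks replicate 2 (adjusted p = 0.0923 and 0.0751). Eif2ak2 stood at 7.13 in replicate 3, above the 5.45 to 6.03 of the other 20-week mice. Without that array it rose by 0.72 (adjusted p = 0.0185), and its groups overlapped in either fit. Without replicate 3, 10 rose and none fell, among them Irf8 (1.37), Oasl2 (1.20) and Stat2 (1.02), and after quantile normalization of the same 24 arrays 7 rose and 1 fell, with a median of 0.05. Over all genes 1.14% were higher with all arrays, 6.23% without replicate 3 and 4.84% after that normalization. Ifit1 (0.41) and Irf7 (0.19), both known as interferon-induced, did not pass although their groups did not overlap. Of the chemokines, Ccl9 rose by 1.17 (adjusted p = 0.0151) and Ccl6 by 0.80 (adjusted p = 0.028), and the remaining 53 ligands and receptors did not pass. Without replicate 3, 3 members of this list rose, a share near the 6.23% of all genes. Cxcl1 fell in that fit (-0.74, adjusted p = 0.00444), where 2.65% of all genes were lower. Ccl6 lost its call in 7 of the 10 fits that left out 1 array (up to adjusted p = 0.0742 without 20 weeks replicate 5). Cxcl9, which draws T cells, had levels of 3.86, 5.74, 3.91, 5.21 and 4.03 at 20 weeks, against 3.67, 3.71, 3.61, 3.81 and 3.94 at 4 weeks (0.80, adjusted p = 0.394), so that 2 mice of 20 weeks stood above the others.

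No macrophage or dendritic cell gene of 51 passed with all arrays (median 0.19), where 1.14% of all genes were higher and 1.52% lower. The complement component C1qa, which macrophages make, had levels of 8.94, 8.87, 2.97, 9.21 and 9.21 at 20 weeks, against 7.61, 7.62, 6.89, 6.58 and 7.66 at 4 weeks. Apart from replicate 3, which stood far below, all 20-week mice were higher, and without that array C1qa rose by 1.79 (adjusted p = 0.00103), C1qb by 1.13 (adjusted p = 0.00361) and the Fc receptor Fcgr3 by 0.78 (adjusted p = 0.00727). C1qa, C1qb and Fcgr3 were the only 3 of the 51 to rise in that fit, a share near the 6.23% of all genes. The markers Csf1r and Adgre1 did not pass in either fit.

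Of 39 T and natural killer cell genes, 1 passed, a share near that of all genes (1.14% higher and 1.52% lower). Of the 39, 11 had a probe set whose mean over all arrays was above 3.27. Gzma, the granzyme A of cytotoxic cells, had levels of 3.75, 5.14, 3.58, 3.71 and 4.96 at 20 weeks, against 2.93, 2.94, 2.95, 3.28 and 3.41 at 4 weeks (1.13, SE 0.25, adjusted p = 0.0139). It lay highest in replicates 2 and 5 of the 20-week mice. Cd3e (-0.05) and Cd8a (-0.01), which T cells carry, lay between 3.06 and 4.04 in all 10 mice. None of 33 B and plasma cell genes, of which 20 had such a probe set, passed in either fit (median 0.01). Without replicate 3, 6.23% of all genes were higher and 2.65% lower. The immunoglobulin A gene Igha had levels of 5.13, 5.36, 7.16, 5.22 and 5.68 at 20 weeks, against 4.05, 3.23, 3.26, 3.46 and 3.95 at 4 weeks (2.12, SE 0.64, adjusted p = 0.0835). The groups did not overlap, and the highest value was that of replicate 3. Jchain, which joins immunoglobulin A, ranged over 3.60 to 9.72 at 20 weeks and 3.60 to 5.68 at 4 weeks, and the B cell gene Cd79a over 2.55 to 3.57 at 20 weeks and 2.57 to 5.71 at 4 weeks. Relative to the 4-week mean, the B and plasma cell list stood at -0.40, 0.48, 1.37, -0.24 and -0.03 at 20 weeks and at -0.40, -0.38, -0.04, 0.42 and 0.39 at 4 weeks. The lymph node list (0 of 10 passed) stood at -0.98, -0.11, 0.90, -0.80 and -0.57 at 20 weeks and at -0.94, -0.89, 0.16, 1.13 and 0.53 at 4 weeks. The lists share B cell genes such as Cd79a and Fcer2a. The part of lymph node tissue in the B cell values was not tested.

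Of the secretory products, 1 of 18 of the granular ducts, 2 of 19 of the submandibular and sublingual acini and 1 of 12 of the parotid fell and none rose, against 1.52% of all genes lower. In the granular ducts Klk1, tissue kallikrein, had levels of 14.63, 14.66, 14.40, 14.52 and 14.59 at 20 weeks, against 14.94, 15.09, 14.86, 15.06 and 14.98 at 4 weeks (-0.42, SE 0.06, adjusted p = 0.000228). It was lower in every 20-week mouse by a small margin, near the top of the scale, and its probe sets, which near-identical kallikreins may share, disagreed in direction. Egf, the epidermal growth factor, did not pass (0.25, adjusted p = 0.441). Without replicate 3, 3 granular duct products rose. Among the acinar products Agr2 and Smgc fell. Smgc, the submandibular gland protein C of the immature gland, had levels of 7.94, 7.80, 4.58, 7.84 and 8.06 at 20 weeks, against 7.82, 12.66, 13.12, 12.33 and 8.69 at 4 weeks (-3.68, SE 0.95, adjusted p = 0.0361). Replicates 2, 3 and 4 of the 4-week mice were high, and replicates 1 and 5 lay near the 20-week mice. Its call was lost in 6 of the 10 fits that left out 1 array (up to adjusted p = 0.119 without 4 weeks replicate 3), and that of Agr2, a disulfide isomerase of mucous cells, without 20 weeks replicate 1 or 4 weeks replicate 2 (up to adjusted p = 0.0533).

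The proline-rich protein gene Prp2 had levels of 3.93, 3.83, 12.54, 4.04 and 4.06 at 20 weeks, against 4.12, 7.22, 8.43, 9.02 and 5.21 at 4 weeks (-1.12, adjusted p = 0.789). Without replicate 3, in which it was over 8 higher than in any other 20-week mouse, it fell by 2.83 (adjusted p = 0.0078). Lpo, lactoperoxidase, fell by 1.07 (adjusted p = 0.0211) as the only parotid product of 12 to pass, and lost its call without 20 weeks replicate 5 or 4 weeks replicate 2 (up to adjusted p = 0.0693). Amylase (-0.51) and Bpifa2 (-0.18) did not pass. Relative to the 4-week mean, the parotid list stood at -1.77, 0.51, 0.62, 0.50 and -2.14 at 20 weeks and at -0.14, -1.86, 0.75, 0.85 and 0.40 at 4 weeks. Replicates 1 and 5 of the 20-week mice and replicate 2 of the 4-week mice were thus low in parotid products. Lpo did not follow that order in every mouse: it had levels of 12.65, 13.12, 11.93, 13.42 and 11.92 at 20 weeks, against 13.82, 14.08, 13.63, 13.26 and 13.57 at 4 weeks, with replicate 2 the highest of the 4-week mice and replicate 3 near the lowest of the 20-week mice.

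None of 29 genes of acinar fluid secretion passed with all arrays, where 1.14% of all genes were higher and 1.52% lower. After removal of replicate 3, 2 rose, a share near the 6.23% of all genes. After quantile normalization without replicate 3, 2 rose and 4 fell, the decreases including Aqp5 (-0.74, adjusted p = 0.000596), the potassium channel Kcnn4 (-0.72, adjusted p = 0.00232) and the carbonic anhydrase Car2 (-0.85, adjusted p = 0.00298), so the calls in this list depended on the scaling. The water channel Aqp5 had levels of 10.92, 11.00, 10.09, 11.12 and 11.22 at 20 weeks, against 11.37, 11.54, 11.81, 10.77 and 11.79 at 4 weeks (-0.58, SE 0.20, adjusted p = 0.131). The groups overlapped through replicate 4 of the 4-week mice alone. The muscarinic receptor Chrm3 lay at the level of genes without signal (2.50 to 2.79 in all 10 mice), and Bhlha15, the transcription factor of secretory cells, differed by -0.14. Of 28 genes of regulated exocytosis none passed, while Snap23, Stx3, Vamp8 and Vamp2 of the fusion machinery rose by 1.91, 1.12, 1.03 and 0.87 without replicate 3.

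In the same list of ER folding and stress 2 genes rose. Creld2, an ER stress-induced isomerase, had levels of 11.20, 10.73, 10.36, 10.15 and 10.59 at 20 weeks, against 9.66, 9.35, 9.40, 8.12 and 9.67 at 4 weeks (1.37, SE 0.29, adjusted p = 0.0114). The groups did not overlap. Dnajb9, a cochaperone of the ER, rose by 1.23 (adjusted p = 0.0116). The other 37 of the 42 members did not pass, and without replicate 3, 10 rose and 3 fell, including Manf (1.66), Ero1a (1.27) and the cofactor Derl2 (1.06) of ER-associated degradation. The chief ER chaperone Hspa5 did not pass (0.22; 0.50 without replicate 3). Sgk1, a kinase induced by mineralocorticoid and glucocorticoid, rose by 1.33 (adjusted p = 0.0292), a call lost in 6 of the 10 fits that left out 1 array (up to adjusted p = 0.0798 without 4 weeks replicate 3).

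Among myoepithelial and smooth muscle genes Synpo2, an actin-binding protein, had levels of 4.68, 4.31, 3.76, 4.35 and 3.87 at 20 weeks, against 3.42, 2.64, 2.75, 2.73 and 3.69 at 4 weeks (1.15, SE 0.20, adjusted p = 0.00251). The groups did not overlap. The 2 probe sets averaged for Synpo2 differed by 0.07 and 2.22. Of 20 myoepithelial and smooth muscle genes 2 rose (Synpo2 and Tpm2) and 1 fell (Rgs5), and the call of Tpm2, a tropomyosin, was lost in 6 of the 10 fits (up to adjusted p = 0.086 without 20 weeks replicate 5). Without replicate 3, 6 rose, with Tagln at 1.68, Cnn1 at 1.64 and Mylk at 1.14, and the smooth muscle actin Acta2 did not pass (0.19). After quantile normalization of the same arrays 4 rose and 2 fell. Over all genes 6.23% were higher without replicate 3, and 4.84% were higher and 6.01% lower after that normalization.

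In lysosomes, the vacuolar proton pump and the respiratory chain many genes rose only when replicate 3 was left out. The 9 reference genes, used elsewhere as controls of level, shifted with them: none passed with all arrays (median -0.01), and B2m, Hprt (0.64) and Ywhaz (0.77) rose without replicate 3 (median 0.32), or 2 of the 9 after quantile normalization (median 0.03). The probe sets of Ywhaz ran from -0.86 to 1.95 without replicate 3. Of 35 lysosomal genes 3 rose and 1 fell with all arrays, and 12 rose and 2 fell without replicate 3. The protease gene Ctsk, known from osteoclasts and fibroblasts, was the decrease (-0.99, adjusted p = 0.00714), and the membrane protein Lamp2 rose by 1.04, which lost its call in 7 of the 10 fits (up to adjusted p = 0.127 without 4 weeks replicate 4). Galc, the galactosylceramidase, had levels of 9.58, 9.08, 5.78, 8.84 and 8.28 at 20 weeks, against 8.01, 6.45, 5.93, 4.88 and 7.21 at 4 weeks, and rose by 2.45 without replicate 3 (adjusted p = 0.00476). Replicate 3 stood below all but 1 mouse of 4 weeks. Of 22 subunits of the proton pump none passed with all arrays and 9 rose without replicate 3, as many as after quantile normalization of the same arrays. Of 82 respiratory chain genes 3 rose with all arrays, all of the ATP synthase (Atp5e, Atp5l and Atp5mpl), and 21 rose without replicate 3. The calls of these 3 were lost in 8, 5 and 3 of the 10 fits that left out 1 array (up to adjusted p = 0.107 without 4 weeks replicate 4, and 0.0993 and 0.0906 without 4 weeks replicate 2). After quantile normalization without that array 9 rose and 4 fell, so the direction of this list depended on the scaling. Of 42 ribosomal proteins 3 were higher without replicate 3, and 1 was higher and 4 lower after quantile normalization, shares near those of all genes (6.23% higher without replicate 3, and 4.84% higher and 6.01% lower after quantile normalization).

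**Figure D4:**
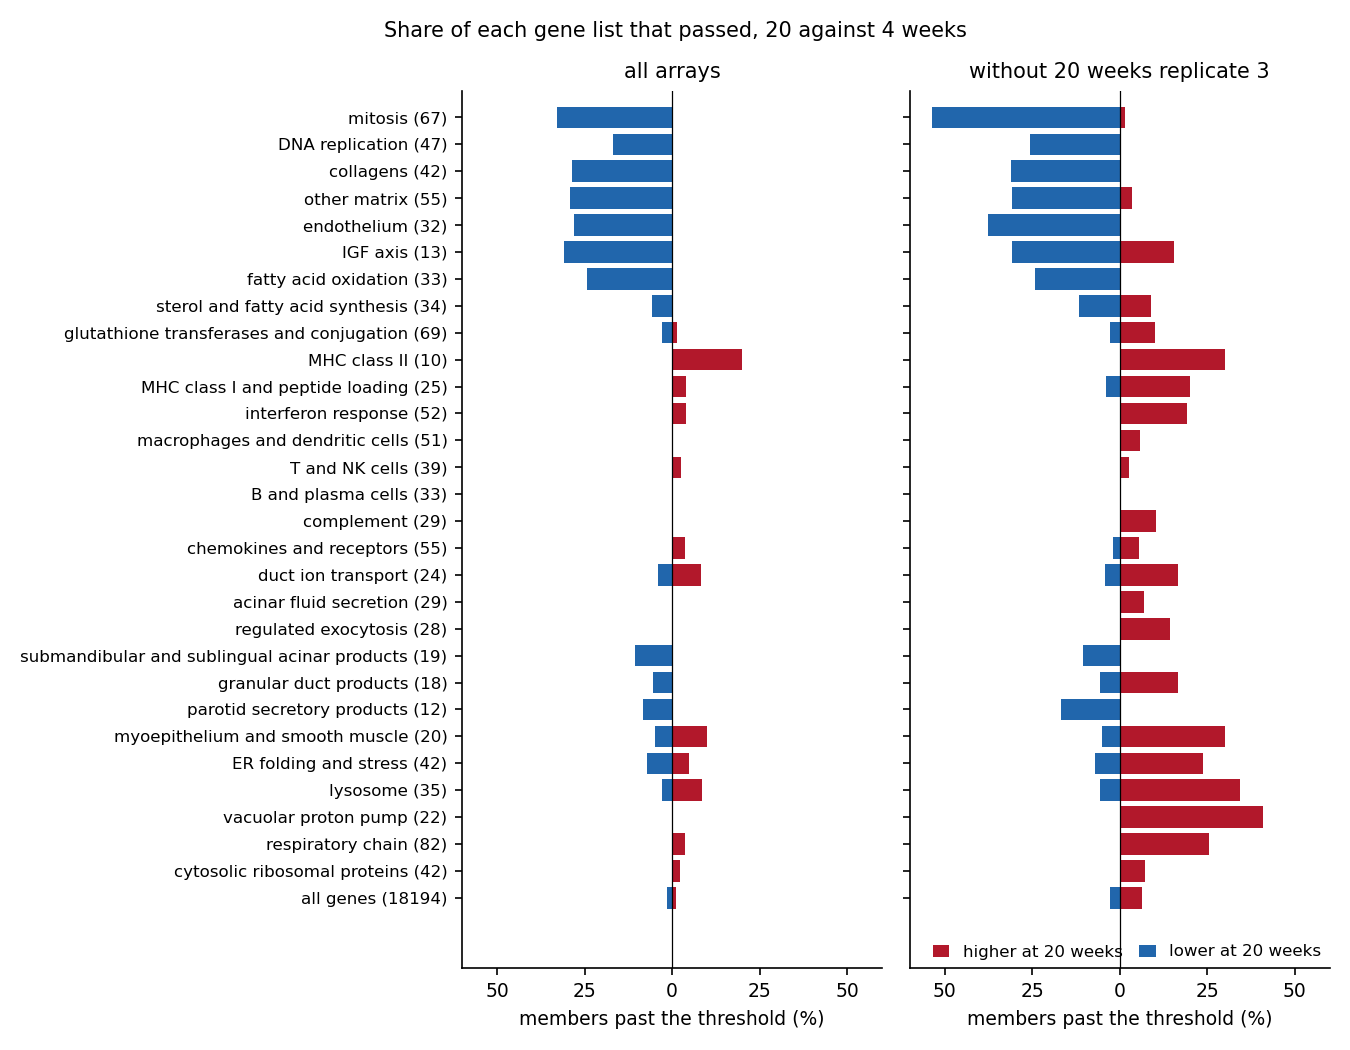
Percentage of the measured members of each gene list (number in brackets) that were higher (red, right) or lower (blue, left) at 20 than at 4 weeks, with all arrays and without 20 weeks replicate 3; the last row is all 18194 genes. The decreases in mitosis, collagens, other matrix and endothelium stand in both panels, while the increases in lysosome, proton pump and respiratory chain are found mainly in the right panel.

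The lists of other tissues held no called gene with all arrays. None of 29 skeletal muscle, 22 adipocyte, 10 lymph node and 5 blood genes passed, where 1.14% of all genes were higher and 1.52% lower. Without replicate 3, 1 adipocyte gene rose, against 6.23% of all genes. Lists this short would hold few calls at those shares. Of the skeletal muscle genes 6 had a probe set whose mean over all arrays was above 3.27. Of 12 autoantigens of SjS only Klk1 passed, and of 41 genes that the study linked to the disease Pgf, a growth factor for vessels, passed with a difference of 0.20. Its levels, 2.84 to 3.25 in all 10 mice, were those of genes without signal, and its call was lost in 6 of the 10 fits that left out 1 array (up to adjusted p = 0.0841 without 20 weeks replicate 5). Of 6 immune and contraction genes that the study named for their late peak 4 rose with all arrays and 5 without replicate 3; the study picked them from these same arrays, so their count is no independent evidence. The nuclear factor Elf3 of epithelia rose by 0.43 and the growth factor Fgf9 by 1.00, both with overlapping groups and lost calls in 5 and 7 of the 10 fits (up to adjusted p = 0.0926 without 4 weeks replicate 4 and 0.108 without 4 weeks replicate 3).

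To see where the glands of 20 weeks differed from the nearest age, they were also set against the 5 mice of 16 weeks. Of 18194 genes 2 were higher (Mup5 and Rnf122; 0.011%) and 3 lower (Dbp, Hdac11 and Usp2; 0.0165%), and 36 (0.198%) and 10 (0.055%) without replicate 3. At an unadjusted p below 0.05 there were 1313, and none passed with the spread taken from these 10 arrays alone. Dbp, a transcription factor driven by the circadian clock, averaged 10.08, 10.76, 10.47, 10.71 and 7.43 over the 5 ages from 4 to 20 weeks. It was 3.27 lower than at 16 weeks (SE 0.38, adjusted p = 0.000362) and 2.65 lower than at 4 weeks (adjusted p = 0.0003). Its levels were 6.42, 6.43, 7.03, 8.90 and 8.39 at 20 weeks, against 9.88, 10.17, 10.03, 9.61 and 10.72 at 4 weeks. The mice of 20 weeks thus varied among themselves, and all of them lay below the mice of the other ages.

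Of the other 17 clock genes, Npas2, an activator of the clock, had levels of 4.80, 4.24, 4.20, 3.32 and 3.55 at 20 weeks, against 3.39, 3.35, 3.42, 3.34 and 3.38 at 4 weeks (0.65, SE 0.17, adjusted p = 0.0361). Replicates 1, 2 and 3, the 3 mice with the lowest Dbp, had the highest Npas2. Its call was lost in 7 of the 10 fits that left out 1 array (up to adjusted p = 0.0938 without 20 weeks replicate 2). Against 4 weeks Npas2 and Dbp were the only members of the 18-gene clock list to pass, and 16 did not. Over all genes 1.14% were higher and 1.52% lower. The hour at which the glands were taken is not given in the sources used here, and its part in these values was not tested. Usp2, a deubiquitinase with a daily rhythm, was 2.09 lower than at 16 weeks but differed by -0.52 from 4 weeks (adjusted p = 0.689). The major urinary protein Mup5 was 1.42 higher than at 16 weeks and differed by -0.04 from 4 weeks (adjusted p = 0.952), having averaged 12.90, 11.28, 11.91, 11.44 and 12.86 over the 5 ages. Hdac11, a histone deacetylase, and Rnf122, a ubiquitin ligase, differed from both ages: Hdac11 fell by 1.12 and Rnf122 rose by 0.67 against 4 weeks.

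**Figure D5:**
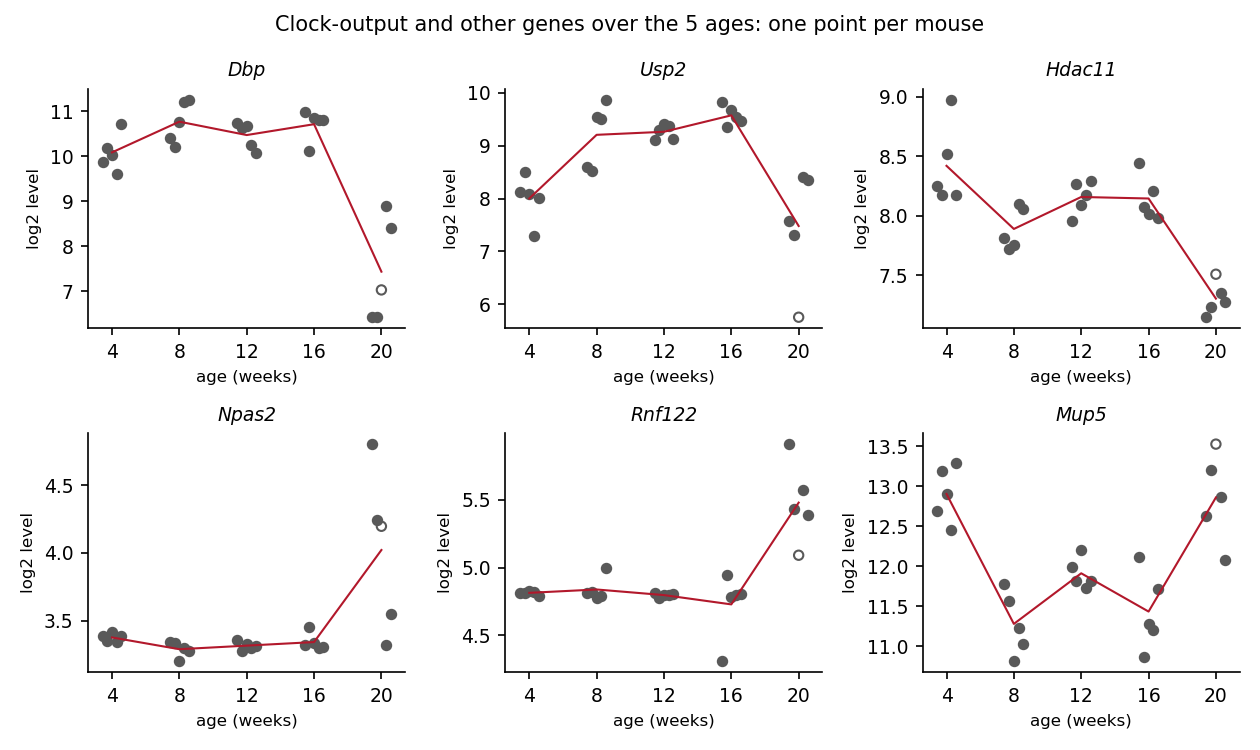
Log2 level of 6 genes in each mouse against age in weeks (5 ages, 5 mice each), with a line through the means; the open circle is 20 weeks replicate 3. Dbp, Hdac11 and Usp2 drop and Rnf122 and Mup5 climb between 16 and 20 weeks, while Npas2, high in 3 of the 5 mice of 20 weeks, did not pass between these ages (adjusted p = 0.188).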

How the data were processed

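Gene expression was measured on 25 arrays, 1 per mouse. The deposited table held log2 values of 45101 probe sets, which the authors had background-corrected and normalized together (GCRMA in the study's methods, RMA in the submitters' processing notes, whose version is not given in the sources used here), so absolute changes in total RNA cannot be seen and low levels are compressed. Probe sets were named through the platform annotation: 34958 had 1 symbol, 932 several and 9211 none, and symbols of 34754 were updated through RefSeq gene identifiers. A gene's level was the mean of its probe sets above 3.27, or of all of them where none was. limma 3.58.1 (R 4.3.3) fitted all 18194 genes on 25 arrays, with two-sided moderated tests and Benjamini-Hochberg adjustment at 0.05; the scripts were tested on simulated data. The number and signal of the arrays limit the precision, and no 2 arrays held identical values. Alternatives were another summary of probe sets, a filter on low genes, quantile normalization, array weights, a trend and robust prior, a replicate block, the 2 ages alone and leaving out each array. Quantile normalization without 20 weeks replicate 3 was chosen after seeing the data.

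The gene lists and members were chosen with earlier results of these data known. Named genes were the 10 largest called increases and decreases whose groups did not overlap, with and without 20 weeks replicate 3, the members of each list that ranked first by adjusted p in either fit (at most 4), and fixed markers. The other genes named were chosen after their values were seen: Pttg1, Mcm5, Col4a2, Col4a5, Lamc1, Lama2, Lamb1, Pcolce, Crtap, Mmp2, Mmp14, Fap, Timp3, Thbs1, Plvap, Asns, Psat1, Atf4, Ddit3, Cck, Tap1, Psmb8, Stat2, Ifit1, Irf7, Cxcl9, Ero1a, Derl2, Hspa5, Mylk, Mup5, Rnf122, Hdac11 and Usp2.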

Additional observations from a re-analysis of the deposited data

Results flagged for a closer look

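A mouse was looked at again where its value stood apart from the other 4 of its age by Dixon's test, which chance alone does in about 1 in 20 groups. At 20 weeks this mouse was replicate 3 in 84 of the 88 named genes (of 290) so marked, and at 4 weeks replicate 4 in 14 of 32. The named genes were chosen in part by the fit without 20 weeks replicate 3, which favours genes where that mouse stood apart. Its count can therefore not be set against 1 in 20. Replicate 3 of the 20-week mice stood apart from its group at log2 levels of 5.64 for Ptgds, 2.23 for Pcp4l1, 8.29 for S100a1, 6.02 for H2-Q2, 3.09 for Sult1c1 and, on the high side, 12.54 for Prp2. As mean levels of gene lists relative to the 4-week mean, the same mouse stood apart at -1.71 for fatty acid oxidation, -1.12 for glucocorticoid targets, -0.89 for lysosome, -0.89 for epithelial keratins and lineage factors, -0.72 for duct ion transport, -0.66 for the vacuolar proton pump, -0.54 for regulated exocytosis, -0.34 for MHC class I and peptide loading, -0.17 for the disease genes named by the study and -0.04 for complement.

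At 4 weeks replicate 4 stood apart at -0.61 for the respiratory chain, -0.51 for cytosolic heat shock, -0.44 for epithelial keratins and lineage factors, -0.41 for fatty acid oxidation and -0.16 for Wnt, TGF beta and growth factor signalling, and at log2 levels of 3.68 for Ptprz1 and 8.12 for Creld2. Replicate 3 stood at 0.20 for the blood list, replicate 5 at 0.24 for the disease genes named by the study and replicate 1 at 4.33 for Kcns3.

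By a test of the difference between their changes at 20 and at 16 weeks from the 4-week mice, 5 genes differed: Dbp (-3.27), Usp2 (-2.09), Hdac11 (-0.84), Rnf122 (0.75) and Mup5 (1.42), given as 20 minus 16 weeks on the log2 scale.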

How the results depend on the processing

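Of the 96 named genes past the threshold for 20 against 4 weeks, 62 passed under every alternative other than those with only the 2 ages, 22 passed under all, and none changed direction. With 207 genes higher and 276 lower as reported, array weights, which gave 20 weeks replicate 3 a weight of 0.0163, called 2459 higher and 4074 lower; quantile normalization 357 and 697; the 2 ages alone 9 and 38; the 24 arrays without replicate 3 1134 and 483, these with the 2 ages alone 112 and 92, and these with quantile normalization 880 and 1093. Leaving out 1 array gave 97 to 1134 higher and 181 to 483 lower. For 20 against 16 weeks, with 2 higher and 3 lower, the counts were 6 higher with all probe sets averaged, 1 and 2 with the brightest, 382 and 277 with array weights, 36 and 43 with quantile normalization, 0 and 0 with the 2 ages alone (569 genes at an unadjusted p below 0.05), 36 and 10 without replicate 3, 0 and 0 with this and the 2 ages alone (1206), 93 and 77 with this and quantile normalization, and 1 to 36 and 1 to 10 when 1 array was left out (12 and 4 without 20 weeks replicate 2, 10 and 5 without replicate 4). Replicate numbers did not pair the mice (correlations of deviations of same-numbered mice between -0.49 and 0.60); with the replicate number as a block 172 genes were higher and 243 lower against 4 weeks, and 1 and 2 against 16 weeks, and 88 of the 96 named genes passed. Genes that did not pass as reported but passed in the opposite direction under array weights were Eomes (-0.23), Il21 (-0.06), Ckm (-0.07), Myh4 (-0.15), Ssna1 (0.48) and Gapdh (0.61), and under quantile normalization without replicate 3 Car6 (-0.25). The cause of these shifts was not tested. In these alternatives, other than those with only the 2 ages, at least 20 mitosis, 12 collagen, 11 other matrix, 5 endothelial and 4 fatty acid oxidation genes fell.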
